A study of Mus musculus with 6 samples.

Results

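The myeloid colony-stimulating factor receptors are the cell surface proteins through which blood cells read CSF-1, G-CSF, GM-CSF and IL-3. The family examined here held 6 mouse genes, Csf1r, Csf3r, Csf2ra, Csf2rb, Csf2rb2 and Il3ra, taken by gene name from a table of 55487 genes. All 6 had enough counts to be tested, among 15298 genes that were. The family was chosen on results of the same comparison, so the differences of its members are given as a description and support nothing. RNA came from LT-HSCs (long-term hematopoietic stem cells), rare marrow cells that can rebuild all blood lineages. They were sorted from wild-type mice as cells that carried Sca-1 and c-Kit and lacked lineage antigens, Flk2 and CD34. No mouse had been irradiated. There were 3 libraries from mice given carnosine, the natural dipeptide of beta-alanine and histidine, and 3 from mice given saline. The sources used here give neither the dose and duration nor the mice's age, sex and number, and they do not say whether the libraries of a group came from separate mice. The spread between libraries, and every p-value built on it, may therefore be technical.

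CSF1R is a receptor tyrosine kinase that sustains monocytes and macrophages and binds CSF-1 and IL-34. The G-CSF receptor, encoded by Csf3r, pairs with itself and drives neutrophil production. The receptors for GM-CSF and IL-3 join a ligand-specific alpha chain (Csf2ra, Il3ra) to a shared signalling beta chain (Csf2rb), which also serves the IL-5 receptor. Mice carry an additional beta chain gene, Csf2rb2, whose product serves IL-3 alone. The GM-CSF and IL-3 receptors, which lack a kinase of their own, signal mainly through JAK2 and STAT5. The transcription factors PU.1 and C/EBP-alpha are known regulators of several of the receptor genes.

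Transcripts of 3 of the 6 receptor genes were lower in LT-HSCs of carnosine-treated mice, namely Csf1r, Csf3r and Csf2ra, and none was higher. Csf1r was at 0.461 times, Csf3r at 0.657 times and Csf2ra at 0.764 times the saline level. The beta chain genes Csf2rb and Csf2rb2 differed by less than the spread between libraries, and Il3ra did not pass the threshold. A gene was called at an adjusted p under 0.05 in edgeR's quasi-likelihood test over all genes tested. By this rule 17.9% of all genes were called, 8.39% lower and 9.51% higher. The carnosine libraries all lay below the saline libraries for 4 of the 6 receptor genes, and for 19.0% of all genes. The members' median log2 fold change was -0.29, against 0.000925 over all genes tested. Because the members were chosen by this contrast, nothing is read from these shares. In bulk RNA, fewer cells of a type and less RNA per cell cannot be told apart.

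**Figure D1:**
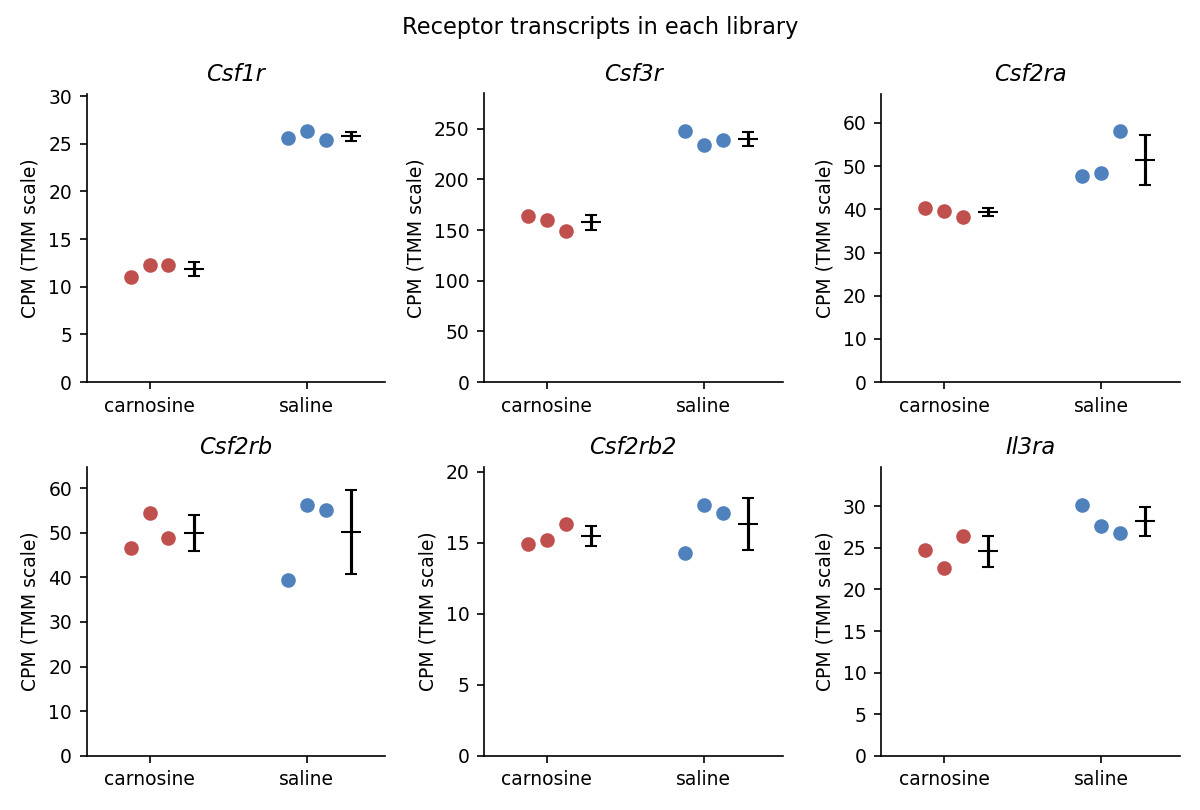
CPM (counts scaled to library size, with TMM factors) of the 6 receptor genes in each library, with carnosine left of saline; the bars beside the points show the mean ± SD of 3 libraries. Csf1r, Csf3r, Csf2ra and Il3ra have all carnosine points below all saline points, by the narrowest margin for Il3ra (26.4 against 26.8 CPM), while Csf2rb and Csf2rb2 overlap.

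Csf3r was the most abundant of the 6 per length, and its gene lies on chromosome 4 of GRCm38 (126024550 to 126044440, plus strand, 17 exons in its longest coding transcript). In CPM, which scales counts to library size, the carnosine libraries held 164, 160 and 149, against 247, 234 and 239 in the saline libraries. The groups stood clear of each other, with a gap far wider than either group's own range. The means were 158 ± 7.58 CPM with carnosine and 240 ± 6.82 CPM with saline (SD, n = 3 each). The log2 fold change was -0.61 (SE 0.04, 95% interval -0.71 to -0.51). These values rest on 5604 counts in the carnosine libraries and 8128 in the saline libraries, so counting error is small beside the difference. Of all genes tested, 4.55% had a lower log2 fold change.

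Csf2ra encodes the alpha chain that gives the GM-CSF receptor its specificity. It lies on chromosome 19 (61223957 to 61228429, minus strand, 12 exons). Its transcripts stood at 40.2, 39.5 and 38.3 CPM in the carnosine libraries, against 47.7, 48.4 and 58.1 CPM in the saline libraries. The carnosine values were tightly grouped, and saline replicate 3 lay above the other saline libraries. Means were 39.3 ± 0.982 CPM with carnosine and 51.4 ± 5.80 CPM with saline (SD, n = 3 each), a log2 fold change of -0.39 (SE 0.08, interval -0.59 to -0.19). This was the weakest of the calls in the family. It was lost when carnosine replicate 1, 2 or 3 was left out, at log2 fold changes of -0.40, -0.39 and -0.37. Without saline replicate 3 the log2 fold change was -0.29 and the call was kept.

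Promoter windows were available for 4 of the 6 genes: Csf3r, Csf2ra, Csf2rb2 and Il3ra. Those of Csf3r and Csf2ra, whose transcripts were lower with carnosine, are shown beside that of Csf2rb2, whose transcripts were not called. Each is 300 bases from RefSeq on GRCm38.p6, running from 250 bases before the transcription start to 50 bases after it, on the gene's own strand. Capitals mark matches, on either strand, to GAGGAA (the core of PU.1 sites), TTNNGNAA (C/EBP) and TTCNNNGAA (STAT). The windows are chr4:126024409-126024708 (plus) for Csf3r, chr19:61228369-61228668 (minus) for Csf2ra and chr15:78305672-78305971 (minus) for Csf2rb2.
Csf3r: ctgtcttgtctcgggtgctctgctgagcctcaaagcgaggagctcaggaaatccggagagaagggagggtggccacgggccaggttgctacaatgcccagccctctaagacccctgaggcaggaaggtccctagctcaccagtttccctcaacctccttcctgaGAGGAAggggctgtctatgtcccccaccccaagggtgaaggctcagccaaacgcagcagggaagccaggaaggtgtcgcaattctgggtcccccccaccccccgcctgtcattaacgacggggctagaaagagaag
Csf2ra: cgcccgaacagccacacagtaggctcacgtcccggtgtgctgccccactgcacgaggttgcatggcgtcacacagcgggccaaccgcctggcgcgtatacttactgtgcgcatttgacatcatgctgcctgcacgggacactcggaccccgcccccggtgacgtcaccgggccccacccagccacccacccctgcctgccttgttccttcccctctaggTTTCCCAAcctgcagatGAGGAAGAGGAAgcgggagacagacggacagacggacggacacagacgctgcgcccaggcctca
Csf2rb2: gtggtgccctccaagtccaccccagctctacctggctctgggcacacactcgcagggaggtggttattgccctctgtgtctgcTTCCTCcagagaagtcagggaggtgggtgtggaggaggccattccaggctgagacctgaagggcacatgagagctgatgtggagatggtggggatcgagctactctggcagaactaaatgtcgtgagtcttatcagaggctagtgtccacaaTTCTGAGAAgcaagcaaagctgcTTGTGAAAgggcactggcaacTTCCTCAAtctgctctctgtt
The Csf3r window held 1 GAGGAA, at -86 from the start, and neither of the other motifs. In the Csf2ra window 2 copies of GAGGAA stood end to end at -14 and -8, with a C/EBP match (TTTCCCAA) upstream at -31. The Csf2rb2 window held 2 GAGGAA matches on the opposite strand, at -167 and 30, a STAT match (TTCTGAGAA) at -15, and C/EBP matches at 9 and 30, the last overlapping the PU.1 match there. The Il3ra window held a single C/EBP match (TTGCTCAA) at -134. These letters are common: over 32851 windows of 27025 genes, GAGGAA was present in 28.3%, TTNNGNAA in 40.7% and TTCNNNGAA in 8.30%, and 4.82% held at least 2 copies of GAGGAA. Of the 4 windows only that of Csf2rb2 matched all 3 motifs. A relation between matches and calls was not tested, and Csf1r and Csf2rb had no window. A match describes the sequence only and says nothing about binding in these cells.

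The beta chain genes lie side by side on chromosome 15, with 20030 bases between them. Csf2rb, the shared chain, spans 78325752 to 78353847 on the plus strand, and Csf2rb2, the chain used by IL-3 alone, spans 78282507 to 78305721 on the minus strand. Their coding sequences, of 2688 and 2634 bases in the GENCODE M21 models, were 95.2% identical over 2628 aligned bases, with 125 differing. The stretch of 60 coding bases with most differences shows how reads can be told apart there. It lies at chr15:78338893-78338952 (plus, exon 5) in Csf2rb and at chr15:78294379-78294438 (minus, exon 4) in Csf2rb2, on GRCm38, and capitals mark its 13 differing bases.
Csf2rb: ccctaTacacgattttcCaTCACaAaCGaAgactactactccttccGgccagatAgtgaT
Csf2rb2: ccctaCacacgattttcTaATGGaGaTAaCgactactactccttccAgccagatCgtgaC
The longest run without a difference was 242 bases in the last coding exon of both genes, at chr15:78348577-78348818 (plus) in Csf2rb and chr15:78284630-78284871 (minus) in Csf2rb2. A read from within it cannot be assigned to either gene.
Shared run: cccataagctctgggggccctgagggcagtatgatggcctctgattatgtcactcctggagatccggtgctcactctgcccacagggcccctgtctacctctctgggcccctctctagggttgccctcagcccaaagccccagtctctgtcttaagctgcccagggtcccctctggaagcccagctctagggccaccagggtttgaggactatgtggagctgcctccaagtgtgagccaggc
Of all windows of 100 bases along the longest coding transcript, 6.96% in Csf2rb and 7.20% in Csf2rb2 also occurred in another gene, each time the other beta chain gene. The authors' treatment of such reads is not given in the sources used here, so the split of counts between the pair is uncertain and their sum was also tested.

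Csf2rb was measured at 46.6, 54.5 and 48.9 CPM in the carnosine libraries, against 39.3, 56.3 and 55.0 CPM in the saline libraries. The groups overlapped fully, with saline replicate 1 the lowest of the 6 libraries and saline replicate 2 the highest. The log2 fold change was -0.01 (SE 0.14, interval -0.33 to 0.31), and its sign turned with the choice of libraries. Csf2rb2 was measured at 14.9, 15.2 and 16.3 CPM with carnosine, against 14.2, 17.7 and 17.1 CPM with saline. Here too saline replicate 1 was lowest and the groups overlapped. Its log2 fold change was -0.08 (SE 0.10, interval -0.32 to 0.16). Summed, the pair held 61.5, 69.7 and 65.2 CPM with carnosine, against 53.6, 74.0 and 72.1 CPM with saline, a log2 fold change of -0.03 (SE 0.12, interval -0.31 to 0.25). The sum does not depend on how reads were split within the pair, and its interval leaves room for a difference of either sign of that size. Without saline replicate 1 the log2 fold change of the sum was -0.16, and without saline replicate 2 it was 0.06.

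Il3ra encodes the alpha chain for IL-3 and lies on chromosome 14 (14346275 to 14356011, plus strand, 11 exons). It stood at 24.8, 22.6 and 26.4 CPM in the carnosine libraries, against 30.2, 27.6 and 26.8 CPM in the saline libraries. The groups did not overlap, but carnosine replicate 3 and saline replicate 3 were nearly equal. The log2 fold change was -0.19 (SE 0.08, interval -0.39 to 0.00125), and the gene was not called under any of 17 alternative settings. An antisense gene, Gm48860, overlaps 990 bases of the Il3ra locus, and it held 1 count in all carnosine libraries together and 1 in all saline libraries.

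Csf1r had the largest relative difference in the family. Its gene lies on chromosome 18 (61100598 to 61132149, plus strand, 21 exons). The carnosine libraries held 11.03, 12.3 and 12.3 CPM, against 25.6, 26.3 and 25.4 CPM in the saline libraries. The highest carnosine library was below the lowest saline library by more than the whole carnosine level. Means were 11.9 ± 0.731 CPM with carnosine and 25.8 ± 0.485 CPM with saline (SD, n = 3 each), a log2 fold change of -1.12 (SE 0.08, interval -1.30 to -0.94). The counts behind them were 423 with carnosine and 872 with saline. Only 0.889% of all genes tested had a lower log2 fold change. The gene's end overlaps that of Hmgxb3, on the opposite strand, by 873 bases, and 16.8% of windows of 100 bases in the Csf1r transcript are also in a Hmgxb3 transcript. The strand setting used in counting is not given in the sources used here. Hmgxb3 itself averaged 59.6 ± 1.18 CPM with carnosine and 66.7 ± 4.75 CPM with saline (SD, n = 3 each), with -0.16 on the log2 scale (SE 0.06; edgeR adjusted p = 0.119). Its part in the Csf1r values was not tested.

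**Figure D2:**
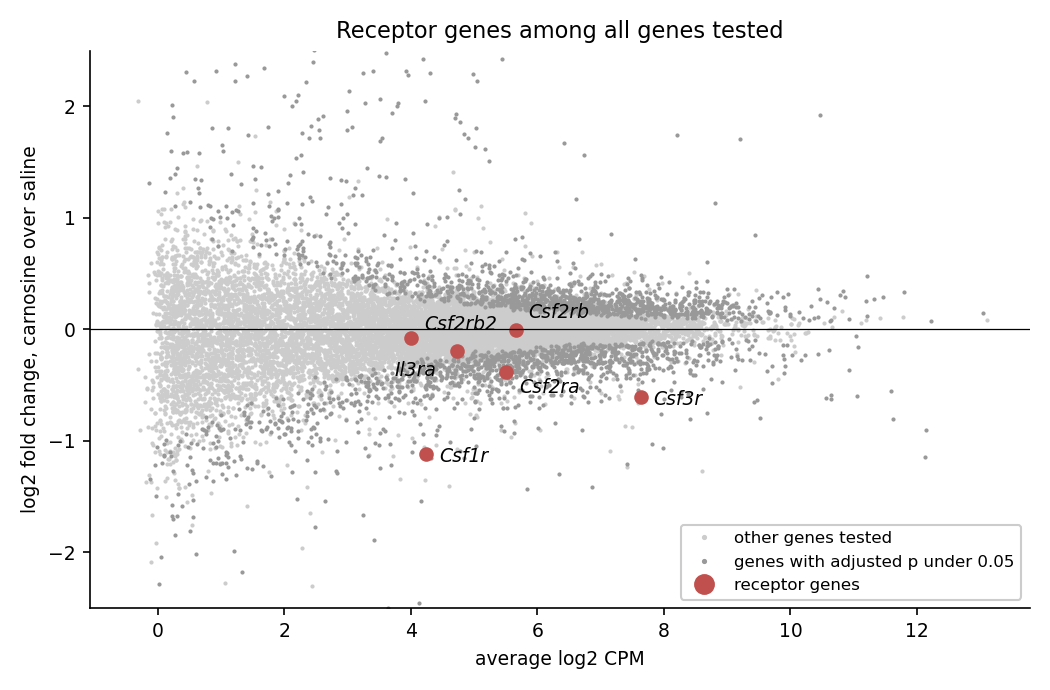
Log2 fold change of carnosine over saline (vertical axis) against average log2 CPM (horizontal axis) for 15228 of the 15298 genes tested; 70 genes lie outside the axis range of 2.5 on either side. Dark grey points passed an adjusted p under 0.05 and red points are the receptor genes, of which Csf1r at -1.12 lies lowest and Csf2rb lies on the line at 0.

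Levels of different genes were compared in FPKM, which is meant to correct for length. The lengths implied by the deposited counts and FPKM exceeded those of the longest coding transcripts. They were 6168 bases against 1849 for Csf2ra, 11084 against 4900 for Csf2rb and 5519 against 3481 for Csf3r. The excess was unequal between genes. The size of a difference between genes, and the order of close neighbours, therefore depend on the length used. In the carnosine libraries the order was Csf3r (28.4 ± 1.37 FPKM), Csf2ra (6.35 ± 0.160), Il3ra (5.44 ± 0.419), Csf2rb (4.49 ± 0.366), Csf2rb2 (2.04 ± 0.0955) and Csf1r (1.53 ± 0.0940), all as mean ± SD of 3 libraries. In the saline libraries it was Csf3r (43.5 ± 1.28 FPKM), Csf2ra (8.33 ± 0.932), Il3ra (6.26 ± 0.400), Csf2rb (4.53 ± 0.848), Csf1r (3.33 ± 0.0630) and Csf2rb2 (2.16 ± 0.241). Csf1r and Csf2rb2 thus traded the last places between the groups. No neighbours in either order overlapped in their libraries, though some were close. The lowest Il3ra library with carnosine was at 4.997 FPKM, against 4.90 for the highest Csf2rb library of that group. The lowest Csf2rb library with saline was at 3.55 FPKM, against 3.40 for the highest Csf1r library of that group.

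**Figure D3:**
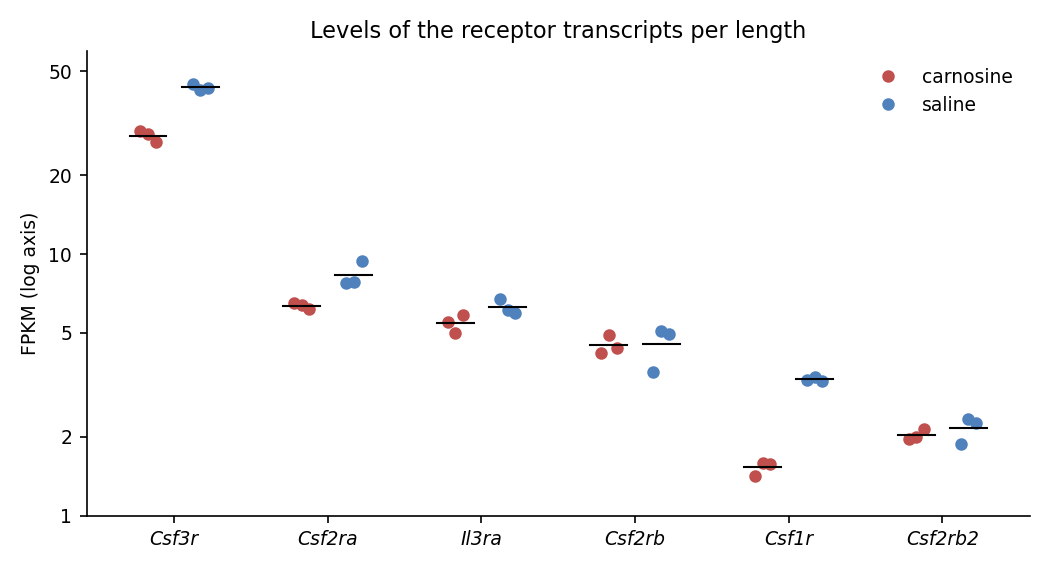
Deposited FPKM values of the receptor genes in each library on a log axis, with carnosine in red left of saline in blue and a line at each group's mean. Csf3r stands far above the others in both groups, and Csf1r lies below Csf2rb2 with carnosine and above it with saline.

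The balance between alpha and beta chains was described by ratios of FPKM within each library. The size of these ratios depends on the same lengths. Csf2ra over the summed beta chains was 1.05, 0.924 and 0.945 in the carnosine libraries, against 1.42, 1.06 and 1.30 in the saline libraries. The groups did not overlap, but carnosine replicate 1 and saline replicate 2 differed only in the third digit. Set against Csf2rb alone, the Csf2ra ratio was 1.55, 1.30 and 1.41 with carnosine, against 2.18, 1.54 and 1.90 with saline, and here the groups overlapped. Il3ra over Csf2rb was 1.31, 1.02 and 1.33 with carnosine, against 1.89, 1.21 and 1.20 with saline, also overlapping. The ratio of the beta chains, Csf2rb over Csf2rb2, was 2.13, 2.44 and 2.04 with carnosine, against 1.88, 2.17 and 2.20 with saline. In all 6 libraries the shared beta chain was the more abundant of the pair per length. Csf3r over Csf1r was 20.8, 18.2 and 16.997 with carnosine, against 13.5, 12.4 and 13.1 with saline, so the G-CSF receptor held a larger lead over the CSF-1 receptor in every carnosine library. Ratios that hold Csf1r, Csf3r or Csf2ra carry the differences on which those genes were chosen, and none was tested.

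The genes most like each receptor gene were taken by Pearson's r of log2 CPM over the 6 libraries, among 13606 genes whose average log2 CPM reached 1. All points share the split into treatment groups, so any gene with a clear difference scores high. For Csf1r the closest were Parp14 (r = 0.9998), AI504432 (0.999) and Wfdc17 (0.999), and 597 genes exceeded an r of 0.95. For Csf3r they were Shfl, Oasl2 and Gon4l (0.998 each), with 535 genes past 0.95. Parp14, Shfl and Oasl2 are known as interferon-stimulated genes. Csf2ra was closest to Zfp384, Lpar6 and Hspa2 (0.994 each), with 101 genes past 0.95, and Il3ra to Plin3 (0.990), Rnf14 (0.988) and Rps19bp1 (0.983), with 53. Csf2rb was closest to Sgip1 (0.981), Gm17096 and Anxa1 (0.976 each), and Csf2rb2 to Rmdn2 (0.992), Klhl24 (0.981) and 4930503L19Rik (0.979), with 12 and 13 genes past 0.95. The beta chain genes had an r of 0.799 with each other over the 6 libraries and 0.854 once group means were removed, and they share part of their sequence.

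Of 6 genes for ligands of these receptors, Csf1, which encodes CSF-1, alone had enough counts to be tested, at 10.6 ± 1.10 CPM with carnosine and 12.5 ± 0.227 CPM with saline (SD, n = 3 each; log2 fold change -0.24, SE 0.10, edgeR adjusted p = 0.154). Csf2 and Csf3, for GM-CSF and G-CSF, held 4 and 4 counts over all carnosine libraries, against 4 and 2 over all saline libraries. Il3 held 0 counts with carnosine and 1 with saline, Il34 held 1 with carnosine and 0 with saline, and Il5 held none in any library. A count of 0 allows up to 3 counts a library, or 0.226 to 0.291 CPM.

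The gene lists from here on were chosen with earlier results of these data known, so their counts and medians are a description only. Over all genes tested, 8.39% were lower and 9.51% higher with carnosine. Among 21 tested receptors for other cytokines and growth factors, 3 were lower with carnosine and 0 higher, with a median log2 fold change of -0.01. The 3 were Il1r1, the signalling receptor for IL-1 (-0.24, SE 0.03; edgeR adjusted p = 0.00294), Il6ra, the IL-6 binding chain (-0.34, SE 0.06; 0.00725), and Il2rg, the common gamma chain (-0.14, SE 0.04; 0.0376). The Il2rg call was lost when any of 5 of the 6 libraries was left out, with an adjusted p of up to 0.112 without carnosine replicate 1. The stem cell factor receptor Kit, part of the sorting gate, averaged 530 ± 9.97 CPM with carnosine and 546 ± 8.53 CPM with saline (log2 fold change -0.04, edgeR adjusted p = 0.256). Flt3, whose protein Flk2 the sorted cells lacked, averaged 775 ± 11.03 CPM with carnosine and 818 ± 15.1 CPM with saline (-0.08, edgeR adjusted p = 0.0503), and passed the threshold under 5 of 17 alternative settings. Il5ra, the third alpha chain that pairs with Csf2rb, was too low to test, with 27 counts over the carnosine libraries and 18 over the saline libraries.

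Among signal transducers, 7 of 38 genes were lower and 4 higher with carnosine, with a median log2 fold change of -0.02. The shares over all genes tested were 8.39% lower and 9.51% higher. The kinase that works at the beta chain, Jak2, was not called, at 0.06 on the log2 scale (SE 0.04, edgeR adjusted p = 0.334), and the transcription factors Stat5a and Stat5b had -0.08 and -0.03 (adjusted p = 0.268 and 0.701). The lower genes included the myeloid tyrosine kinase Fes (-0.34, SE 0.06; edgeR adjusted p = 0.0103), Tyk2, a JAK family kinase (-0.22, SE 0.04; 0.0108), Vav1, a guanine nucleotide exchange factor (-0.17, SE 0.03; 0.0116), and the kinase Syk (-0.12, SE 0.03; 0.0205). Stat3, also lower (-0.13, SE 0.03; edgeR adjusted p = 0.0211), and the higher genes Akt1, Nras and Map2k2 were named after their values were seen. The fourth higher gene, Pik3r1, a regulatory subunit of PI 3-kinase, was at 0.21 on the log2 scale (SE 0.03; edgeR adjusted p = 0.00374). The most abundant genes not called were Plcg2 (0.01, adjusted p = 0.814) and Jak1 (0.08, adjusted p = 0.0655). The Syk call was lost without any of 5 of the 6 libraries (adjusted p of up to 0.0694 without carnosine replicate 1). With DESeq2 the calls of Tyk2 (adjusted p = 0.0506), Vav1 (0.0708) and Syk were lost.

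Feedback inhibitors included 2 lower genes and 1 higher gene among 17, with a median log2 fold change of -0.12. Calls in either direction were about as frequent here as over all genes tested (17.9%), so nothing is read from this count. Socs3, the inhibitor that damps the G-CSF and IL-6 receptors, averaged 332 ± 16.5 CPM with carnosine and 404 ± 5.36 CPM with saline (SD, n = 3 each; log2 fold change -0.28, SE 0.04, edgeR adjusted p = 0.00271). Cish, a STAT5-induced inhibitor, was higher, at 50.1 ± 4.41 CPM with carnosine and 36.5 ± 1.47 CPM with saline (0.46, SE 0.08, edgeR adjusted p = 0.00725). The adaptor Dok3 was lower (-0.49, SE 0.13, edgeR adjusted p = 0.0433), a call lost when any of 5 of the 6 libraries was left out (up to 0.119 without saline replicate 2). The most abundant inhibitors, Ptprc (0.07, adjusted p = 0.643) and Inpp5d (0.04, adjusted p = 0.426), were not called.

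Of 12 known STAT5 target genes, 4 were lower and 1 higher, with a median of -0.11. The shares over all genes tested were 8.39% lower and 9.51% higher. These counts depend on the list. Cish, also induced by STAT5, was counted with the feedback inhibitors instead and was higher (0.46, SE 0.08, edgeR adjusted p = 0.00725). The survival gene Mcl1 averaged 955 ± 9.29 CPM with carnosine and 1118 ± 10.6 CPM with saline (SD, n = 3 each; log2 fold change -0.23, SE 0.02, edgeR adjusted p = 0.000248). Id1 (-0.57, SE 0.08, edgeR adjusted p = 0.00302), the kinase gene Pim1 (-0.26, SE 0.06, 0.0178) and Myc (-0.22, SE 0.06, 0.0445) were also lower. The cyclin gene Ccnd1 was higher (0.29, SE 0.08, edgeR adjusted p = 0.0406), while Ccnd2 (0.13, adjusted p = 0.0665) and Ccnd3 (0.46, adjusted p = 0.388) were not called. The calls of Myc and Ccnd1 were lost when any of 5 of the 6 libraries was left out, with an adjusted p of up to 0.117 for Myc without carnosine replicate 1 and 0.111 for Ccnd1 without saline replicate 3. The Pim1 call was lost without carnosine replicate 1 (0.0565) or saline replicate 3.

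Of 18 tested transcription factors known to act on myeloid receptor genes, 8 were lower and 1 was higher with carnosine. Their median log2 fold change was -0.34. Over all genes tested, 8.39% were lower and 9.51% higher. The list was chosen with earlier results of these data known, so nothing is read from its counts. Spi1, which encodes PU.1, averaged 106 ± 5.23 CPM with carnosine and 123 ± 9.72 CPM with saline and was not called (-0.22, SE 0.07, edgeR adjusted p = 0.0535). Cebpa averaged 40.2 ± 1.72 CPM with carnosine and 57.5 ± 3.01 CPM with saline (SD, n = 3 each), which is -0.52 on the log2 scale (SE 0.06, edgeR adjusted p = 0.00164). Its relative Cebpb went the other way, at 79.99 ± 3.24 CPM with carnosine and 50.8 ± 2.30 CPM with saline (0.65, SE 0.06, edgeR adjusted p = 0.000337). Runx1, a regulator of Csf1r, was at -0.39 on the log2 scale (SE 0.05, edgeR adjusted p = 0.00320). Egr1, an immediate early gene, averaged 1694 ± 8.81 CPM with carnosine and 2570 ± 24.9 CPM with saline (-0.60, SE 0.02, edgeR adjusted p = 7.59e-07), and Klf4 184 ± 4.59 CPM with carnosine and 312 ± 2.79 CPM with saline (-0.76, SE 0.03, 6.89e-06). Myb (-0.37, SE 0.02, edgeR adjusted p = 3.56e-05) and Gfi1b (-1.04, SE 0.13, 0.00210) were lower as well. The most abundant genes of the list that were not called were Cbfb (0.12, adjusted p = 0.0563) and Fli1 (-0.13, adjusted p = 0.0827). Runx1, Cebpd and Gfi1, which complete the 8, and Spi1 were named after their values were seen. Ligands and the 5 lists described after them held 117 genes, of which 107 were tested, 24 were lower and 7 higher.

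**Figure D4:**
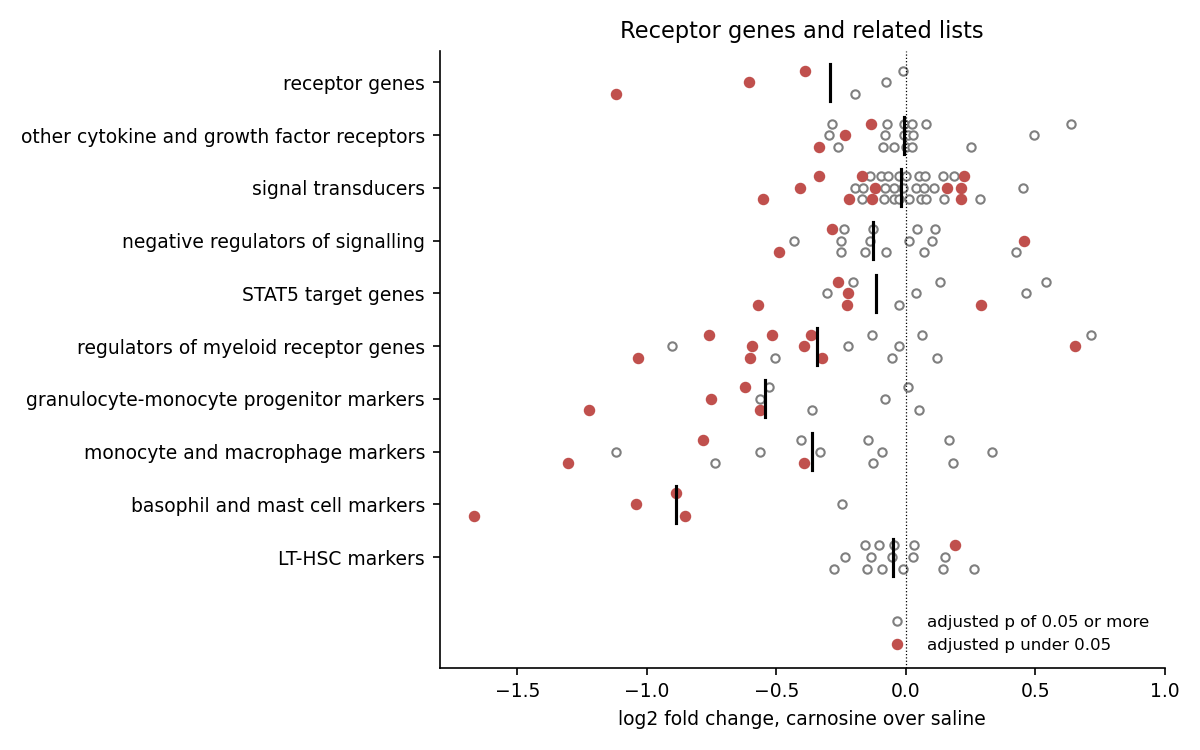
Log2 fold change of carnosine over saline for each tested gene of the receptor family and of related lists; filled red points passed an adjusted p under 0.05, open points did not, and black bars mark medians. Regulators of myeloid receptor genes (median -0.34) and granulocyte-monocyte progenitor markers (median -0.54) lie mostly left of 0. LT-HSC markers (median -0.05) are spread around 0. The lists were chosen with earlier results of these data known.

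The label of the cells was set beside LT-HSC markers, all 16 of which had enough counts to be tested. Of these none was lower and 1 was higher, Mecom, which encodes a stem cell transcription factor (0.19, SE 0.04, edgeR adjusted p = 0.0241). That call was lost when any of the 6 libraries was left out, with an adjusted p of up to 0.0693. Among all genes tested 8.39% were lower and 9.51% higher, so nothing is read from this count. Summed, these markers ranged from 1501 to 1638 CPM with carnosine and from 1555 to 1574 CPM with saline. Hlf averaged 259 ± 88.2 CPM with carnosine and 215 ± 6.21 CPM with saline, and Meis1 215 ± 5.33 CPM with carnosine and 239 ± 15.2 CPM with saline (SD, n = 3 each), and neither was called. Some markers stood apart from the gate. Cd34 RNA averaged 861 ± 14.9 CPM with carnosine and 857 ± 24.5 CPM with saline although the sorted cells lacked CD34 protein. Flt3 RNA averaged 775 CPM with carnosine and 818 CPM with saline although they lacked its protein, Flk2. In CPM, which does not correct for length, both exceeded Kit, whose protein the sorted cells carried. Kit RNA averaged 530 CPM with carnosine and 546 CPM with saline. Slamf1, which encodes CD150, averaged 3.64 ± 0.412 CPM with carnosine and 4.28 ± 0.706 CPM with saline. The label LT-HSC is that of the samples, and the RNA of these markers does not settle it.

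Some markers of the myeloid cells that carry these receptors were lower as well, beside 8.39% of all genes tested. Their lists, too, were chosen with earlier results of these data known. Of 10 granulocyte-monocyte progenitor markers, 4 were lower and 0 higher, and their sum was 2142 to 2193 CPM with carnosine and 2460 to 2492 CPM with saline. The most abundant genes in that sum were Cd34 and Flt3, and neither was called. Cd34 averaged 861 CPM with carnosine and 857 CPM with saline, and Flt3 775 CPM with carnosine and 818 CPM with saline. Mpo, the myeloperoxidase gene, averaged 306 ± 5.54 CPM with carnosine and 516 ± 4.71 CPM with saline (log2 fold change -0.75, SE 0.02, edgeR adjusted p = 2.96e-06). The other 3 were the protease genes Elane (-0.62, SE 0.08, edgeR adjusted p = 0.00256) and Ctsg (-0.56, SE 0.08, 0.00374), and Igsf6 (-1.22, SE 0.17, 0.00308). Of 17 monocyte and macrophage markers 14 were tested and 3 were lower, F13a1 (-0.78, SE 0.10, edgeR adjusted p = 0.00208), Ms4a6c (-0.39, SE 0.06, 0.00570) and Cx3cr1 (-1.30, SE 0.37, 0.0478), and none was higher. The Cx3cr1 call was lost without any of 4 libraries, with an adjusted p of up to 0.143 without saline replicate 3. The most abundant monocyte markers, Lyz2 (-0.09, edgeR adjusted p = 0.195) and Ctss (-0.15, 0.234), were not called, and the list summed to 257 to 278 CPM with carnosine and 297 to 313 CPM with saline. None of its genes was at 0 in all libraries, and Adgre1, which encodes F4/80, held 9 counts over the carnosine libraries and 29 over the saline libraries. The part of these markers in the lower Csf1r, Csf3r and Csf2ra values was not tested.

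Basophils and mast cells use the IL-3 receptor. Of 10 of their markers 5 were tested and 4 were lower: the proteases Prss34 (-1.67, SE 0.11, edgeR adjusted p = 0.000106), Mcpt8 (-1.04, SE 0.18, 0.00725) and Gzmb (-0.89, SE 0.23, 0.0358), and the histamine enzyme Hdc (-0.85, SE 0.18, 0.0178). By comparison, 8.39% of all genes tested were lower and 9.51% higher with carnosine. The sum of the 10 markers was 19.2 to 20.6 CPM with carnosine and 37.3 to 40.7 CPM with saline, with Cma1 and Tpsab1 at 0 in all libraries. Cpa3, the most abundant gene not called, averaged 7.66 ± 0.749 CPM with carnosine and 9.05 ± 0.420 CPM with saline (-0.24, edgeR adjusted p = 0.193). The Gzmb call was lost without any of the 6 libraries (up to 0.112 without saline replicate 1) and the Hdc call without any of 4 (up to 0.0585 without carnosine replicate 1). Mature neutrophils, the cells richest in Csf3r, had low counts here. Only 3 of their 12 markers had enough counts, none was called, and the sum was 5.69 to 16.8 CPM with carnosine and 4.37 to 11.8 CPM with saline, with none at 0 in all libraries. Ltf held 92 counts in carnosine replicate 2 and 62 in saline replicate 3, against 2 to 13 in each other library. Lcn2 held 35 and 39 counts in the same libraries, against 1 to 8 in each other library.

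Other lineages differed in both directions, beside 8.39% lower and 9.51% higher among all genes tested. Of 10 erythroid markers 6 were higher and 0 lower, with a sum of 166 to 170 CPM with carnosine and 62.1 to 70.9 CPM with saline. The smallest p among them was that of the globin gene Hbb-bt (1.63, SE 0.10, edgeR adjusted p = 6.50e-05), whose reads may be shared with its near-identical copy. Of 11 tested B and plasma cell markers 3 were higher (Jchain, Mzb1 and Prdm1) and 3 lower (among them Sdc1 and Ebf1), and Jchain, the antibody joining chain gene, at 456 ± 139 CPM with carnosine and 136 ± 40.1 CPM with saline (SD, n = 3 each), was part of a sum of 379 to 621 CPM with carnosine and 181 to 255 CPM with saline. Dendritic cell markers had 2 of 4 lower, Zbtb46 and Ccr9 (sum 19.2 to 20.5 CPM with carnosine and 24.4 to 27.6 CPM with saline), T and NK cell markers 1 of 5 lower, Cd4 (82.5 to 86.4 CPM with carnosine and 90.7 to 94.7 CPM with saline), and megakaryocyte markers 1 lower, Pf4, and 1 higher, Itgb3, of 6 (251 to 261 CPM with carnosine and 252 to 254 CPM with saline). Eosinophil markers, of cells that respond to IL-5 through Csf2rb, had 0 of 2 called (11.4 to 12.2 CPM with carnosine and 7.77 to 11.5 CPM with saline). No gene of these lists was at 0 in all libraries, and their part in the receptor values was not tested.

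Csf1r and Csf3r kept their direction and stayed past the threshold under all 17 alternative settings of scaling, filter, test and libraries. Over them the log2 fold change ranged from -1.14 to -0.78 for Csf1r, from -0.64 to -0.57 for Csf3r and from -0.44 to -0.29 for Csf2ra. Il3ra ranged from -0.25 to -0.14, Csf2rb2 from -0.16 to -0.02 and Csf2rb from -0.15 to 0.08, all without a call. The ranges include values on log2(FPKM + 1), where the added 1 shrinks differences of genes at low FPKM. With 1 library left out, Csf1r ranged from -1.14 to -1.07. The count of called receptor genes was 2 or 3 throughout. With 3 libraries a group an exact permutation test of a single gene cannot give a two-sided p under 0.1, so every call rests on the spread pooled over genes by the model.

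**Figure D5:**
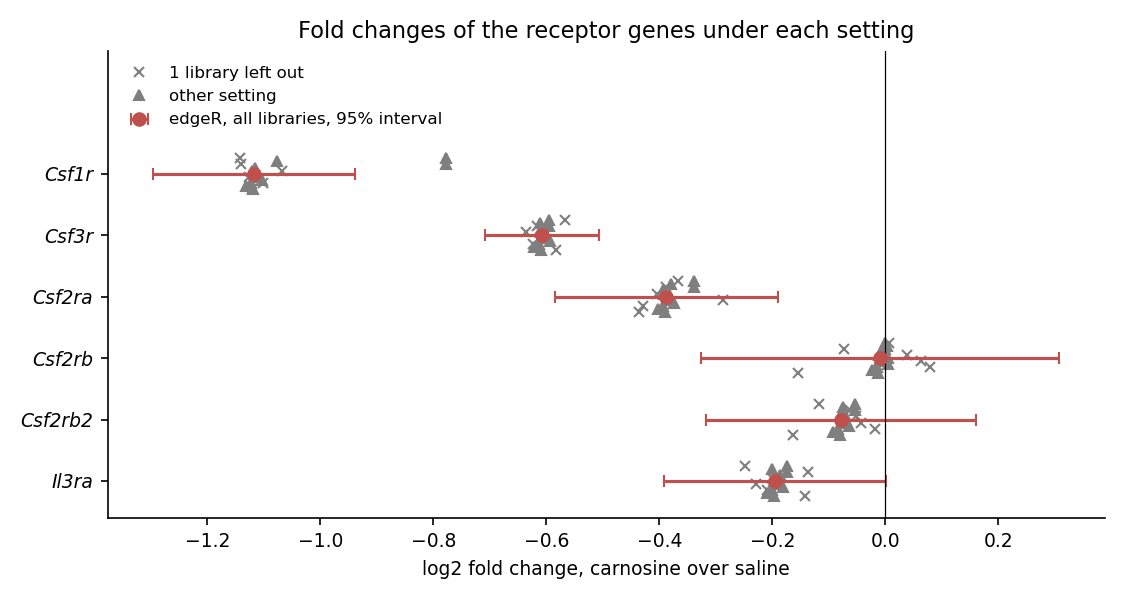
Log2 fold change of carnosine over saline for each receptor gene: red points with bars are the edgeR values with 95% intervals from all 6 libraries, crosses leave out 1 library, and triangles are other settings. Some triangles are on log2(FPKM + 1), where the added 1 shrinks differences of genes at low FPKM. All marks of Csf1r, Csf3r and Csf2ra lie left of 0, and those of Csf2rb fall on both sides of it.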

How the data were processed

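Bulk poly-A RNA of sorted LT-HSCs was sequenced in 6 libraries. The build GRCm38 and the tools CASAVA 1.8, HISAT2, StringTie and edgeR come from the submitters' processing notes. The sources used here do not give the annotation, the strand setting or the treatment of reads that fit several places. The deposited table pairs a raw count with an FPKM value for each gene and library, per the file headers. Totals ran from 10304539 to 13251332 counts per library. Libraries of a group differed by more than sampling noise (chi-square per degree of freedom 5.19 to 6.34). On log2 CPM, principal component 1 held 48.2% of the variance.

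Counts were scaled by TMM (factors 0.998 to 1.003), filtered with filterByExpr and tested, carnosine over saline, with the two-sided quasi-likelihood test of edgeR 4.0.16 (R 4.3.3) over 15298 genes, with Benjamini-Hochberg adjustment and a threshold of 0.05. Fits were tested on simulated data. SEs are the log2 fold change over the square root of F, and levels are mean ± SD. Members and gene lists were chosen with earlier results of these data known. Named genes were all members, up to 6 called genes of smallest p and the 2 most abundant uncalled genes per list, the 3 most abundant markers per cell type, and the 3 genes most like each member. Jak2, Stat5a, Stat5b, Il5ra, Slamf1, Adgre1, Hmgxb3 and other genes outside this rule were named after their values were seen. Alternatives were DESeq2 1.42.0, limma 3.58.1 (voom, and trend on log2(FPKM + 1) and log2(FPKM + 0.1)), other scalings and filters, a replicate block and leaving out each library. Intervals for 0 counts cover counting error only. Sequences were aligned with Biopython 1.88. A planned protein comparison was not run. Some genes that the rule names or the lists count are not reported here by name.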

Additional observations from a re-analysis of the deposited data

How the results depend on the processing

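Csf1r, Csf3r, Il3ra and Csf2rb2 kept their direction and their side of the threshold under all 17 alternatives. The calls over all genes, 1455 higher and 1283 lower, fell to 773 and 775 with DESeq2, 882 and 717 with limma-trend on log2(FPKM + 1) without a filter, and 932 to 1009 and 801 to 883 with 1 library left out. The pathway lists, with 7 higher and 24 lower, had 4 higher with DESeq2 and with limma-trend on log2(FPKM + 1) or log2(FPKM + 0.1), 3 higher and 15 lower with limma-trend on log2(FPKM + 1) without a filter, and 3 to 6 higher and 15 to 20 lower with 1 library left out. Csf2ra was at -0.34 (adjusted p = 0.0731) with limma-trend on log2(FPKM + 1) without a filter, and at -0.44 to -0.29 with 1 library left out. Csf2rb, near 0 throughout, was at 0.00431 without a filter on counts, 0.000277 with limma-trend on log2(FPKM + 1) with or without a filter, 0.00293 on log2(FPKM + 0.1), and -0.154 to 0.0798 with 1 library left out, and the summed beta chains at -0.157 to 0.0568. The cause of these changes was not tested.

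Libraries with the same number did not deviate together over genes (correlations of -0.0495, -0.0686 and 0.0188). With 3 libraries a group this cannot exclude a pairing by number that acts on part of the genes. With the replicate block, 946 genes were higher and 810 lower, the pathway lists had 4 higher, Csf2ra was at -0.38 (adjusted p = 0.0511) and Csf2rb at 0.00499. The block changed no other call among the receptor genes.

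Of 52 named genes outside the family, 35 were called, and 13 of these lost the call under at least 1 alternative; none of the 35 reversed. DESeq2 ended the calls of Ccnd1, Dok3, Gzmb, Hdc, Il2rg, Mecom, Myc, Syk, Tyk2 and Vav1. Uncalled genes that changed sign were Ccnd3 (-0.0436 to 0.683 with 1 library left out), Hlf (-0.0523 to 0.41), Ptprc (-0.0389 to 0.152), Cd34 (-0.0103 to 0.0305, and -0.00815 with upper quartile factors) and Plcg2 (-0.00995 to 0.0336, and -0.0035 with upper quartile factors). Scalings moved the median of all genes by at most 0.0150 on the log2 scale. Depth limits the 5 ligand genes other than Csf1, and Il5ra, whose differences were not detectable at these counts.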
